A study of Mus musculus with 15 samples.

Results

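Galectins are sugar-binding proteins, and the genes described here are 4 galectins, Lgals3, Lgals1, Lgals9 and Lgals8, together with Lgals3bp, which encodes the secreted galectin-3-binding protein. These 5 genes, of 35519 in the files, were picked by name with their levels in all groups already known. Their fold changes are therefore given as a description, and no p-value is printed for them. The study asked how microglia lacking apolipoprotein E respond when eye pressure is raised, as in glaucoma. Cells sorted as Fcrls+, CD11b+ and Ly6c- came from retinas of C57BL/6 mice, 12 weeks old, that were Apoe-/- or wild type. Retinas had a microbead injection, which blocks fluid outflow and raises eye pressure, or a sham injection. There were 4 Apoe-/- microbead, 4 Apoe-/- sham, 3 wild-type microbead and 4 wild-type sham libraries, each of bulk RNA from 1 retina, with between 100 and 600 cells taken from a retina. Since Fcrls is a surface marker of resident microglia, cells that had lost it would be missing from the sort.

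Galectins bind sugar chains that end in galactose. They are made in the cytosol without a secretion signal and leave the cell by an unconventional route, after which they cross-link glycoproteins on cell surfaces. Inside cells, galectin-3, galectin-8 and galectin-9 bind glycans that become exposed when a lysosome breaks, and so mark the damaged organelle for repair or autophagy. Galectin-3 is widely used as a marker of activated microglia and macrophages, while resting microglia carry little of it.

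Libraries held 458303 to 714838 reads assigned to genes, and 6521 genes passed the read filter and were tested. Levels are given in CPM, which scales reads with TMM factors to equal library sizes, unless TPM is named, and errors are SD unless stated. Apoe had 3 to 5 reads in Apoe-/- microbead and 0 to 6 in Apoe-/- sham libraries, against 3894 to 15125 in wild-type microbead and 667 to 1225 in wild-type sham libraries, which fits the labelled genotypes. All 10 microglial markers checked, P2ry12 and Tmem119 among them, had reads in every group. Microbead over sham, 4 of the 10 had a negative log2 fold change in Apoe-/- (median of the 10 0.03) and 8 of the 10 in wild type (median -0.25), and none was called. In wild type 4 of them had every microbead library below every sham library (background 4.22%): Gpr34 at -0.96 (SE 0.34), P2ry12 at -0.70 (SE 0.32), Siglech at -0.66 (SE 0.28) and Tmem119 at -0.45 (SE 0.25). Apoe-/- over wild type, 9 of the 10 markers were negative in sham retinas (median -0.35, all genes -0.01). In microbead retinas 5 of the 10 were (median -0.02, all genes 0.01), and none was called in either. The 10 summed to 8560.7 to 13945.2 CPM in Apoe-/- microbead, 6802.0 to 13843.8 in Apoe-/- sham, 10154.3 to 13135.6 in wild-type microbead and 12078.0 to 13909.1 in wild-type sham libraries. The part of these marker differences in those of the members was not tested. Of the 25 most-read genes, 12 were predicted gene models, with names that start with Gm, and their sequence content was not checked. Together they took 64.1% ± 6.58 of the reads in Apoe-/- microbead, 67.8% ± 4.49 in Apoe-/- sham, 45.2% ± 7.23 in wild-type microbead and 61.3% ± 4.51 in wild-type sham libraries. The TMM-scaled size was lowest in Apoe-/- sham library 2, at 225227, and highest in wild-type microbead library 2, at 1000258. In the names of the deposited tables every Apoe-/- library carries one plate letter and every wild-type library another, so plate letter and genotype cannot be told apart.

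The start-site sequences of Lgals3 and Lgals3bp are shown because, of the members tested, on CPM only these had wild-type microbead libraries that all lay above the wild-type sham libraries, and that of Lgals9 because it had the most reads of the 4 galectins (1131). Each window runs from 250 bases before to 50 bases after the start given by RefSeq on GRCm38.p6, on the strand of the gene, and 4 of the 5 members had one. Capitals mark AANNGAAA, a core of the sites bound by interferon regulatory factors, and GAGGAA, a core of the sites bound by PU.1, the master transcription factor of myeloid cells, on either strand. No 2 of the marked matches overlap. The RefSeq starts need not be those of the transcripts that Salmon gave the most reads. Lgals3-203, at chr14:47373964, and Lgals8-201, at chr13:12461503, start past the ends of their windows. Lgals9-202, at chr11:78984946, starts inside its window. Lgals3bp-201, at chr11:118402092, also starts inside its window, ahead of the matches marked there.
Lgals3, chr14:47373610-47373909, plus strand: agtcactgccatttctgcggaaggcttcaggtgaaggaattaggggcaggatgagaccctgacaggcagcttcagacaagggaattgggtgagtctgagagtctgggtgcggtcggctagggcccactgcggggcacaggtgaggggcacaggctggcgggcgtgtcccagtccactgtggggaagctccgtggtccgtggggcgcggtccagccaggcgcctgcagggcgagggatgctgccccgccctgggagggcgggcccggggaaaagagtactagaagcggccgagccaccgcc
Lgals3bp, chr11:118401910-118402209, minus strand: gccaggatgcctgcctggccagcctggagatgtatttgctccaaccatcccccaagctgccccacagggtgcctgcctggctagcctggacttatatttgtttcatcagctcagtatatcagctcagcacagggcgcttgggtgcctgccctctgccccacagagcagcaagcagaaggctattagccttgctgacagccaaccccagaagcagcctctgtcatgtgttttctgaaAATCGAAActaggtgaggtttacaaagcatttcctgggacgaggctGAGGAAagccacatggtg
Lgals9, chr11:78984875-78985174, minus strand: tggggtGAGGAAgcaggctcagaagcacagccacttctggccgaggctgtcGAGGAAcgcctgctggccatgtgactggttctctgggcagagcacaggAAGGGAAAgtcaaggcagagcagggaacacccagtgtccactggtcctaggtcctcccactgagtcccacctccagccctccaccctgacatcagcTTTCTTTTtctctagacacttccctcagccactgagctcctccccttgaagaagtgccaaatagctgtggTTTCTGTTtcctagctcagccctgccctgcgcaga

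The windows differ in composition and in these letters. The Lgals3 window had a GC content of 67.0% with 18 CpG dinucleotides, and neither AANNGAAA nor GAGGAA was found in it. Lgals3bp had 55.0% GC and 3 CpG, with AANNGAAA once, at window positions 237 to 244, and GAGGAA once, at positions 283 to 288. Lgals9 had 58.0% GC and 4 CpG, with AANNGAAA 3 times and GAGGAA 2 times. The Lgals8 window, at 51.7% GC, held neither. Of all 32851 windows of the same length, 23.9% held AANNGAAA and 28.3% held GAGGAA, and the median GC content was 52.7%. TTCNNNGAA (STAT factors, in 8.3% of windows), TGANTCA (AP-1, 7.8%) and CACGTG (the E-box read by TFEB and its relatives, 7.2%) were searched on both strands as well and found in none of the 4. A match describes the letters of these windows and shows no binding.

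Lgals9 is printed a second time because its transcripts differ in the linker that joins the sugar-binding domains of galectin-9. In the GENCODE models the longer transcript, Lgals9-203, has an exon of 93 bases, or 31 codons, at chr11:78969714-78969806 (mm10, minus strand), which Lgals9-202 skips. The first line shows that exon in capitals with 20 bases of the neighbouring exons on each side. In the second line, capitals start where the next exon is joined directly in Lgals9-202.
Lgals9-203, exon 5: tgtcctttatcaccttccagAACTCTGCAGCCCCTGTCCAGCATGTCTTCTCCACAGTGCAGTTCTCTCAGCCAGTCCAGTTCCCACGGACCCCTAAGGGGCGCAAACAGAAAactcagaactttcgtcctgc
Lgals9-202, junction: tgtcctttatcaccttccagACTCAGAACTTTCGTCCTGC

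Lgals3, the gene of galectin-3 (ENSMUSG00000050335, protein coding, chr14:47367751-47386160 on the plus strand of mm10), was the member whose level differed most between groups. Of its 380 reads, 352 were in the wild-type microbead libraries. It had 12.4, 19.1, 7.78 and 0 CPM in Apoe-/- microbead libraries 1 to 4, against 7.14, 0, 3.48 and 5.22 CPM in Apoe-/- sham libraries 1 to 4. In wild type it had 49.2, 269 and 65.4 CPM in microbead libraries 1 to 3, against 1.52, 0, 1.20 and 4.30 CPM in sham libraries 1 to 4. Every wild-type microbead library thus lay above every other library of the study, while the other groups overlapped one another. In bulk RNA, more or fewer cells that express a gene and more or less RNA per cell cannot be told apart, which holds for every value below.

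Between wild-type microbead and wild-type sham retinas the log2 fold change of Lgals3 was 6.16 (SE 0.81, 95% interval 4.47 to 7.84), and the ratio of summed reads was 91.2 (exact 95% interval 35.3 to 337, counting error only). Lgals3 was among the genes past an adjusted p of 0.05 in the fit over all genes, which is a description here, since its levels in these libraries were known when it was picked. Of all tested genes, 0.199% were called in this comparison, all of them higher, and 6.32% had every wild-type microbead library above every wild-type sham library. Between Apoe-/- microbead and Apoe-/- sham retinas the log2 fold change was 1.00 (SE 0.98, interval -1.04 to 3.04), with 17 reads against 7. No gene was called there (background 0%, with 453 genes at an unadjusted p under 0.05 and 0 calls by DESeq2). Between Apoe-/- microbead and wild-type microbead retinas the log2 fold change was -3.83 (SE 0.66, interval -5.21 to -2.44), and all 4 Apoe-/- libraries lay below all 3 wild-type ones. Lgals3 was past the same threshold there, again as a description, in a comparison in which 0.046% of genes were called and 3.7% had every Apoe-/- library below every wild-type one. The difference between the responses, Apoe-/- minus wild type, was -5.15 (SE 1.51, interval -8.31 to -1.999) and was not called after adjustment, nor was that of any other gene (background 0%, with 221 genes at an unadjusted p under 0.05 and 0 calls by DESeq2). Between Apoe-/- sham and wild-type sham retinas it was 1.33 (SE 1.24), not called, with a background of 0.0153% of genes called.

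Wild-type microbead library 2 held 76.4% of the Lgals3 reads of its group, and it was also the library with the most Apoe, at 15121 CPM against 5640 and 9770 CPM in libraries 1 and 3. Without library 2 the log2 fold change of Lgals3 between wild-type microbead and wild-type sham retinas was 4.97, and between Apoe-/- microbead and wild-type microbead retinas it was -2.64. Neither was then called. Between wild-type microbead and wild-type sham retinas 13 genes were called with all libraries, 0 without library 2, 29 without wild-type microbead library 1, 1 to 4 without any 1 of the wild-type sham libraries and 28 without Apoe-/- sham library 2. Between Apoe-/- microbead and wild-type microbead retinas, the call of Lgals3 was also lost, at -4.03 to -3.34, without any 1 of Apoe-/- microbead libraries 1, 3 and 4, Apoe-/- sham library 4 and wild-type sham library 1. That comparison had 3 called genes with all libraries, 1 without any of these or without library 2 of the wild-type microbead group, and 7 without Apoe-/- microbead library 2. The 2 remaining wild-type microbead libraries, at 49.2 and 65.4 CPM, still lay above every other library.

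**Figure D1:**
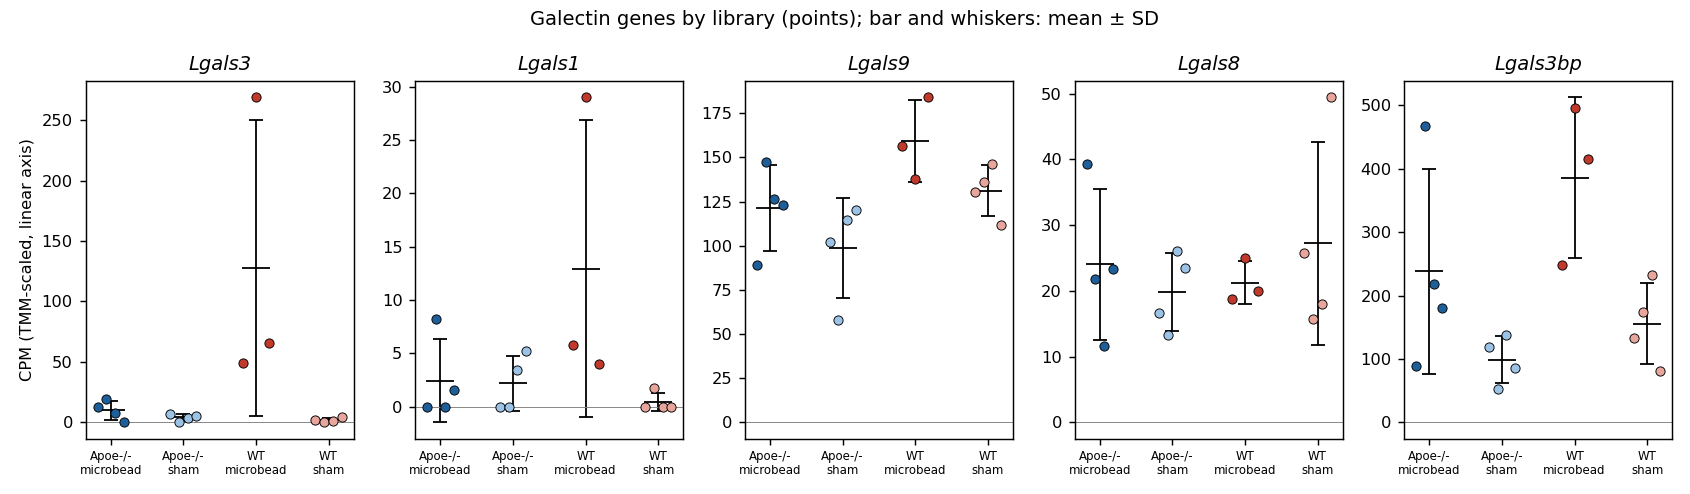
Level of each member in every library, in CPM on a linear axis, by group. Points are libraries, and the bar and whiskers are the mean and SD of 4 libraries, or 3 for wild-type microbead. Lgals3 stands near 0 outside the wild-type microbead group, whose libraries lie at 49.2, 65.4 and 269 CPM, while the groups overlap for Lgals9 and Lgals8.

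Lgals1, the gene of galectin-1 (ENSMUSG00000068220, protein coding, chr15:78926725-78930465, plus strand), was near the limit of detection. Galectin-1 is a small dimer-forming galectin that binds glycans on T cells and myeloid cells. It had 0, 3, 0 and 1 reads in Apoe-/- microbead libraries 1 to 4, against 0, 0, 2 and 2 in Apoe-/- sham libraries. In wild type it had 4, 29 and 3 reads in microbead libraries 1 to 3, against 0, 1, 0 and 0 in sham libraries. All 3 wild-type microbead libraries lay above all 4 wild-type sham libraries, at 5.79, 29.0 and 4.00 CPM against 1.75 CPM or less, but 2 of them rest on 4 and 3 reads. With only 45 reads in all, and 7 libraries at 0, Lgals1 did not pass the read filter and has no fitted fold change. Its summed reads gave a ratio of 37.3 between wild-type microbead and wild-type sham (36 against 1 reads, exact 95% interval 6.28 to 1514), and library 2 held 80.6% of the 36. Between Apoe-/- microbead and wild-type microbead the ratio was 0.135 (4 against 36 reads, interval 0.0350 to 0.377), and those groups overlapped. Counting 3 reads as the limit, a library with 0 reads could still hold up to 13.3 CPM in Apoe-/- sham library 2 and 6.45 CPM in wild-type sham library 4. The limit in wild-type sham library 4 is above 2 of the 3 wild-type microbead values.

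Lgals9, the gene of galectin-9 (ENSMUSG00000001123, protein coding, chr11:78962974-78984946, minus strand), was read in all 15 libraries, and whether its groups overlapped depended on the scale. Galectin-9 carries a pair of sugar-binding domains in tandem and is known as a ligand of the inhibitory receptor TIM-3, the product of Havcr2. By TPM it was the highest galectin in 3 of the 4 groups. Its level was 89.1, 148, 126 and 123 CPM in Apoe-/- microbead libraries 1 to 4, against 102, 57.7, 115 and 120 CPM in Apoe-/- sham libraries. In wild type it was 156, 138 and 184 CPM in microbead libraries 1 to 3, against 131, 136, 146 and 112 CPM in sham libraries. On CPM the groups overlapped in every comparison. Microbead over sham, the log2 fold change was 0.27 (SE 0.25, interval -0.26 to 0.81) in Apoe-/- and 0.28 (SE 0.26, interval -0.27 to 0.82) in wild-type retinas, neither called. Apoe-/- over wild type, it was -0.39 (SE 0.26) in microbead and -0.39 (SE 0.25) in sham retinas, neither called. On TPM Lgals9 had 13.9, 16.4, 18.1 and 25.95 in Apoe-/- microbead libraries and 35.5, 45.2 and 63.5 in wild-type microbead libraries, against 24.3, 22.2, 31.6 and 14.7 in wild-type sham libraries. All 3 wild-type microbead libraries then lay above every wild-type sham and every Apoe-/- microbead library. The share of all genes without overlap on TPM was not computed. On log2 TPM, Apoe-/- over wild type in microbead retinas was -1.32 with a pseudocount of 1 and -1.36 with 0.1. The medians of the 9407 genes tested on TPM were -0.67 and -0.924. Without a filter the median was -0.11 with a pseudocount of 1.

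Lgals8, the gene of galectin-8 (ENSMUSG00000057554, protein coding, chr13:12439415-12464944, minus strand), averaged 19.9 to 27.3 CPM in the 4 groups. Galectin-8, another tandem-repeat galectin, recruits autophagy receptors to broken vesicles. Its mean was 24.1 ± 11.5 CPM in Apoe-/- microbead and 19.9 ± 5.92 CPM in Apoe-/- sham libraries (n = 4 each). It was 21.3 ± 3.27 CPM in wild-type microbead (n = 3) and 27.3 ± 15.4 CPM in wild-type sham libraries (n = 4). Wild-type sham library 4, at 49.5 CPM, and Apoe-/- microbead library 1, at 39.4 CPM, were the highest, and the groups overlapped in every comparison. The log2 fold change, microbead over sham, was 0.22 (SE 0.43) in Apoe-/- and -0.30 (SE 0.42) in wild-type retinas, neither called. Its sign turned when a single library was left out: to -0.13 without Apoe-/- microbead library 1 and to 0.10 without wild-type sham library 4. On log2 TPM the wild-type value was 0.44 with a pseudocount of 1 and 0.56 with 0.1. With a pseudocount of 1 the median of all genes tested on TPM was 0.535, or 0.086 without a filter. The gene shares 875 bases with Heatr1 on the opposite strand, and whether the counting used strand is not given in the sources used here, so reads in that stretch could belong to either.

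Lgals3bp (ENSMUSG00000033880, protein coding, chr11:118392751-118402092, minus strand) had the most reads of the 5, 2014 in all. Its product is a secreted glycoprotein that binds galectin-3 and is known as a gene that interferons induce. It had 89.1, 467, 218 and 180 CPM in Apoe-/- microbead libraries 1 to 4, against 119, 53.3, 137 and 86.1 CPM in Apoe-/- sham libraries. In wild type it had 248, 496 and 415 CPM in microbead libraries 1 to 3, against 134, 175, 233 and 81.7 CPM in sham libraries. The wild-type groups did not overlap, although library 1 of the microbead group lay just above library 3 of the sham group. In the Apoe-/- groups 3 of the 4 microbead libraries lay above all sham libraries and the first lay among them.

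The log2 fold change of Lgals3bp, microbead over sham, was 1.23 (SE 0.43, interval 0.32 to 2.14) in Apoe-/- and 1.303 (SE 0.44, interval 0.38 to 2.23) in wild-type retinas. Summed reads gave ratios of 2.03 (exact interval 1.70 to 2.43) in Apoe-/- and 2.41 (2.15 to 2.71) in wild type. Neither was called after adjustment over all genes. With a library left out the values ran from 0.68 to 1.496 in Apoe-/- and from 1.08 to 1.56 in wild type. The difference between the responses, Apoe-/- minus wild type, was -0.07 (SE 0.62, interval -1.38 to 1.23), an interval that leaves room for a difference of more than 1 log2 unit either way. Apoe-/- over wild type, Lgals3bp was at -0.70 (SE 0.44) in microbead and -0.63 (SE 0.43) in sham retinas, neither called, and on CPM the groups overlapped in both. On TPM the microbead groups did not overlap (share of all genes not computed), with 8.77, 32.5, 20.4 and 26.1 in Apoe-/- libraries against 36.3, 103 and 89.8 in wild-type libraries. On log2 TPM with a pseudocount of 1 that difference was -1.76 (median of all genes tested on TPM -0.67, or -0.11 without a filter). Microbead over sham in wild type was then 2.00 (median 0.535, or 0.086 without a filter). With a pseudocount of 0.1 these values were -1.81 (median -0.924) and 2.07. The difference between the responses was -0.90 on log2 TPM with a pseudocount of 1 (median -0.411, or -0.173 without a filter) and -0.86 with 0.1. Wild-type microbead library 2 held 50.7% of its group's Lgals3bp reads.

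Of the 4 members tested, 2 had wild-type microbead libraries that all lay above the wild-type sham libraries (Lgals3 and Lgals3bp, background 6.32%), none had all Apoe-/- microbead libraries above all Apoe-/- sham ones (background 1.55%), and 1 was lower in all Apoe-/- microbead libraries than in all wild-type microbead ones (Lgals3, background 3.7%). These counts are on the CPM scale. They carry no test, since the members were picked with their levels known. Lgals3 also passed the read filter only through its wild-type microbead libraries, with at least 34 reads in each and at most 7 in any other library. Between Apoe-/- sham and wild-type sham libraries no member was without overlap (background 1.2% higher and 2.39% lower). The plot of fold changes sets these side by side.

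**Figure D2:**
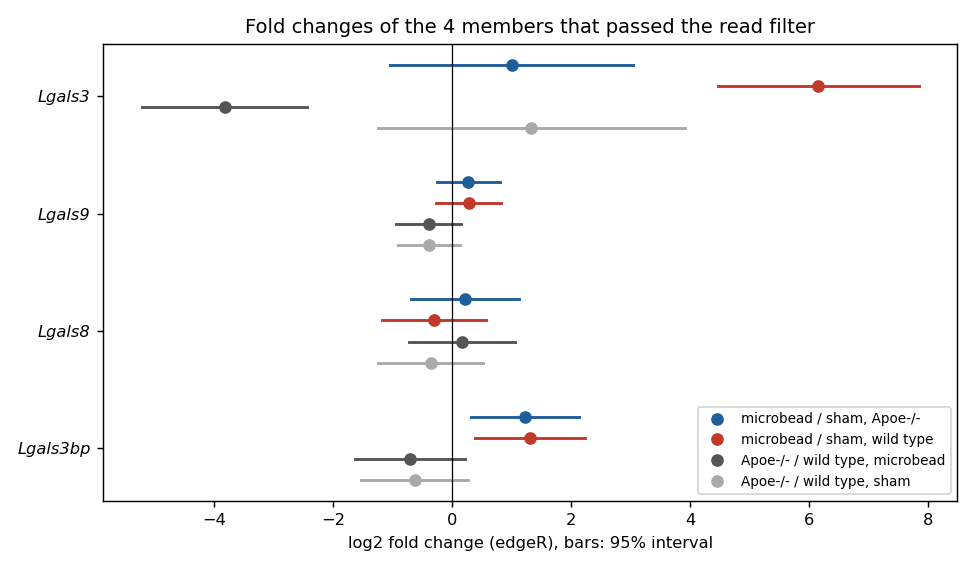
Log2 fold changes from edgeR for the 4 members that passed the read filter, in 4 comparisons, with bars for 95% intervals. Lgals3 stands apart at 6.16 for microbead over sham in wild type and -3.83 for Apoe-/- over wild type in microbead retinas, and Lgals3bp lies at 1.23 and 1.303 for microbead over sham in Apoe-/- and wild type.

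Levels of different genes can be compared only per transcript length, for which the deposited TPM was used. In Apoe-/- microbead libraries the order was Lgals3bp (21.9 ± 10.1 TPM), Lgals9 (18.6 ± 5.21), Lgals8 (3.83 ± 1.91), Lgals3 (2.23 ± 1.67) and Lgals1 (0.821 ± 1.22). In Apoe-/- sham libraries it was Lgals9 (13.5 ± 5.73 TPM), Lgals3bp (10.3 ± 6.33), Lgals8 (3.69 ± 2.46), Lgals3 (0.986 ± 0.757) and Lgals1 (0.885 ± 1.04). In wild-type microbead libraries it was Lgals3bp (76.4 ± 35.3 TPM), Lgals3 (66.3 ± 61.1), Lgals9 (48.1 ± 14.2), Lgals1 (10.9 ± 12.1) and Lgals8 (5.03 ± 0.459). Wild-type sham libraries had Lgals9 (23.2 ± 6.92 TPM) first, then Lgals3bp (18.6 ± 9.99), Lgals8 (3.67 ± 1.58), Lgals3 (0.705 ± 0.841) and Lgals1 (0.207 ± 0.414). Neighbours in these orders overlapped over libraries, except Lgals9 above Lgals1 in wild-type microbead, Lgals3bp above Lgals8 in wild-type sham and Lgals9 above Lgals8 in Apoe-/- microbead libraries. TPM is scaled over all reads, the most-read predicted gene models included. For microbead over sham in wild type, the median log2 difference of all genes tested on TPM was 0.535, and Lgals9, at 1.03 on that scale, lay 0.49 above it.

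As a share of the summed TPM of the 4 galectins in a library, which does not depend on the library's scale, the make-up differed most in wild-type microbead libraries. Lgals3 made up 14.3, 13.8, 8.94 and 0% in Apoe-/- microbead libraries 1 to 4, against 9.18, 0, 3.52 and 4.94% in Apoe-/- sham libraries. In wild type it made up 37.5, 64.5 and 33.1% in microbead libraries 1 to 3, against 1.55, 0, 1.23 and 8.97% in sham libraries. Lgals9 was the largest part in every library except wild-type microbead library 2. It averaged 72.6% ± 14.0 in Apoe-/- microbead, 73.3% ± 8.30 in Apoe-/- sham, 43.4% ± 19.6 in wild-type microbead and 82.4% ± 10 in wild-type sham libraries. These shares come from the values that chose the members and carry no test.

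**Figure D3:**
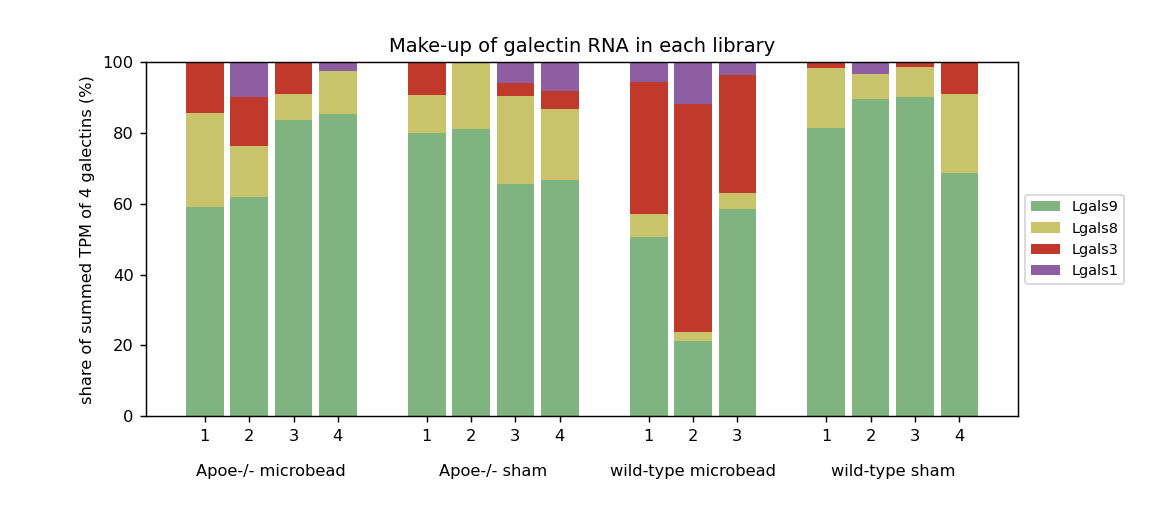
Share of each of 4 galectins in their summed TPM, in percent, 1 bar per library, grouped by genotype and injection. Lgals3 (red) takes 33.1 to 64.5% in wild-type microbead libraries and at most 14.3% in any other library, where Lgals9 (green) is the largest part.

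The other galectin genes searched for were close to absent, and none passed the read filter. Lgals4, known from the gut, had 4 reads in Apoe-/- microbead, 3 in Apoe-/- sham, 12 in wild-type microbead and 3 in wild-type sham libraries, a wild-type microbead over sham ratio of summed reads of 4.15 (exact interval 1.12 to 22.9). Its 3 wild-type microbead libraries had 6, 2 and 4 reads and overlapped the sham libraries. Lgalsl, a galectin-like gene, had 5 reads in Apoe-/- microbead, 3 in Apoe-/- sham, 5 in wild-type microbead and 13 in wild-type sham libraries. Lgals12 had 2 reads in all, Lgals7 and Grifin had 1 each, and Lgals2 had 0 in all 15 libraries. Lgals6 had no entry matched by name and was not analysed here.

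How reads split among the transcripts of a member was not used to choose it. Salmon gave 98.5% of the Lgals9 reads to Lgals9-202, the transcript without the linker exon printed above, and 0 reads to Lgals9-203. Lgals9-201, whose exon 5 shares an end with that linker exon, was given 1.9 reads, in wild-type microbead library 3. The share of Lgals9-202 was 98.8% ± 0.84 in Apoe-/- microbead and 98.2% ± 2.46 in Apoe-/- sham libraries (n = 4 each, exact permutation p = 0.714). It was 98.5% ± 0.58 in wild-type microbead (n = 3) and 98.6% ± 1.49 in wild-type sham libraries (n = 4, exact permutation p = 0.857). Lgals3bp-201 held 99.04% of the Lgals3bp reads, with 98.99% ± 1.19 in Apoe-/- microbead against 96.0% ± 7.12 in Apoe-/- sham (exact permutation p = 0.886) and 99.6% ± 0.41 in wild-type microbead against 98.9% ± 1.48 in wild-type sham (p = 0.714 in the same exact test). Each difference in share was smaller than the SD of the more variable group. All 5 such two-sided tests had an adjusted p of 0.886, with 0.0286 the smallest unadjusted p that groups of 3 and 4, or 4 and 4, can give.

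For the other members the split was less settled. Lgals3-203 took 77.6% of the Lgals3 reads and Lgals3-204 took 18.2%, and Lgals3-203 held 72.9, 75.4 and 84.4% in wild-type microbead libraries 1 to 3, the only libraries with at least 10 reads of the gene. Lgals8-201, Lgals8-204 and Lgals8-206 held 34.9, 30.6 and 19.4% of the Lgals8 reads. The Lgals8-201 share ran over the whole range in single libraries, 0, 100 and 56.3% in wild-type microbead libraries 1 to 3 against 0, 0 and 83.9% in wild-type sham libraries 1, 3 and 4 (exact permutation p = 0.7, where 0.1 is the smallest that 3 against 3 can give). Of the 45 Lgals1 reads, 73.0% were given to Lgals1-202, a model annotated as subject to nonsense-mediated decay, and 27.0% to the full-length Lgals1-201.

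Genes that act with galectins were described from 3 lists, none of them containing a gene called in any comparison by edgeR at an adjusted p under 0.05. Of all tested genes, between 0 and 0.199% were called in a comparison, so the absence of calls in such short lists says little about them. The lists were chosen with earlier results of these data known, so the p-values of their genes are a description. Of 15 glycoproteins that galectins bind, 12 were tested. Their log2 fold changes, microbead over sham, were positive in 9 of 12 in Apoe-/- (median 0.21, all genes 0.01) and in 12 of 12 in wild type (median 0.17, all genes -0.01), where 50.8% and 49.1% of all tested genes were positive in the Apoe-/- and the wild-type comparison. Lag3, an inhibitory receptor that binds galectin-3, had the largest value in both. Lag3 stood at 55.9, 380, 220 and 115 CPM in Apoe-/- microbead libraries 1 to 4, against 69.0, 71.0, 92.2 and 110 CPM in Apoe-/- sham libraries. In wild type Lag3 stood at 197, 285 and 269 CPM in microbead libraries 1 to 3, against 86.6, 126, 98.3 and 114 CPM in sham libraries, with no overlap. It was the only 1 of the 12 that lay higher without overlap in wild type (background 6.32%). In Apoe-/- only Ptprc did so (background 1.55%), with at least 180.2 CPM in microbead and at most 178.4 CPM in sham libraries. The log2 fold change of Lag3 was 1.15 (SE 0.41, edgeR adjusted p = 0.70) in Apoe-/- and 1.24 (SE 0.41, edgeR adjusted p = 0.454) in wild type.

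Other glycoproteins with the smallest p in their comparison lay nearer to 0. In Apoe-/- retinas, microbead over sham, Ptprc, the phosphatase CD45, was at 0.49 (SE 0.23, edgeR adjusted p = 0.70) and Itgam, the CD11b chain used in the sort, at 0.50 (SE 0.27, adjusted p = 0.711). In wild-type retinas Nrp1, a co-receptor of semaphorins and VEGF, was at 0.78 (SE 0.34, edgeR adjusted p = 0.585). Lamp1, a heavily glycosylated lysosomal membrane protein, was at 0.45 (SE 0.38, adjusted p = 0.804). Trem2 and Havcr2 were added for their known ligands after the values were seen. Trem2, the microglial lipid receptor that galectin-3 is known to bind, was at 0.10 (SE 0.23) in Apoe-/- and 0.14 (SE 0.25) in wild type. Havcr2, which encodes the galectin-9 receptor TIM-3, was at -0.30 (SE 0.27) in Apoe-/- and 0.03 (SE 0.28) in wild type.

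Of 17 genes of the response to damaged lysosomes, 11 were tested, of which 7 were positive in Apoe-/- (median 0.12) and 5 in wild type (median -0.07). Sqstm1, the autophagy receptor p62, had 128, 156, 109 and 165 CPM in Apoe-/- microbead libraries 1 to 4, against 71.4, 84.4, 143 and 125 CPM in Apoe-/- sham libraries. In wild type Sqstm1 had 164, 457 and 285 CPM in microbead libraries 1 to 3, against 103, 103, 127 and 114 CPM in sham libraries. The wild-type groups did not overlap and the Apoe-/- groups did. Sqstm1 was the only 1 of the 11 that lay higher without overlap in wild type (background 6.32%). Its log2 fold change was 0.38 (SE 0.31, edgeR adjusted p = 0.78) in Apoe-/- and 1.43 (SE 0.32, edgeR adjusted p = 0.0563) in wild type, and the difference, Apoe-/- minus wild type, was -1.05 (SE 0.44, adjusted p = 1.00). Its adjusted p in wild type ran from 0.00388 with DESeq2 to 0.955 over 23 alternatives, and was under 0.05 in 4 of them. Becn1, which encodes the autophagy protein beclin 1, was at -0.19 (SE 0.42, edgeR adjusted p = 0.943) in Apoe-/- and 1.02 (SE 0.42, adjusted p = 0.549) in wild type. Pdcd6ip, the ESCRT-associated protein ALIX, was at 0.33 (SE 0.36, edgeR adjusted p = 0.849) in Apoe-/- and 0.42 (SE 0.34, adjusted p = 0.786) in wild type. Atg16l1, which helps attach LC3 to membranes, was at -0.39 (SE 0.29, edgeR adjusted p = 0.766) in Apoe-/- and -0.16 (SE 0.28) in wild type.

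Of 18 genes that build or trim the sugar chains galectins read, 12 were tested, of which 8 were positive in Apoe-/- (median 0.19) and 5 in wild type (median -0.17). In Apoe-/- retinas, microbead over sham, the smallest p belonged to St6gal1 at -0.52 (SE 0.41, edgeR adjusted p = 0.777), which adds the sialic acid that masks galactose, Gcnt1 at 0.30 (SE 0.26, adjusted p = 0.805) and Mgat5 at 0.37 (SE 0.32, adjusted p = 0.805). Gcnt1 branches O-linked glycans, and Mgat5 makes the branched N-glycans that galectin-3 prefers. In wild-type retinas they belonged to Man2a2, an N-glycan trimming mannosidase, at -0.90 (SE 0.38, edgeR adjusted p = 0.544), Gcnt2, which makes branched lactosamine chains, at 0.80 (SE 0.35, adjusted p = 0.587) and the lysosomal sialidase gene Neu1 at 0.57 (SE 0.34, adjusted p = 0.716). Gcnt2 was the only 1 of the 12 that lay higher without overlap in wild type (background 6.32%). It had at least 46.35 CPM in microbead and at most 38.37 CPM in sham libraries. The plot of the 3 lists gives every tested gene in both genotypes.

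**Figure D4:**
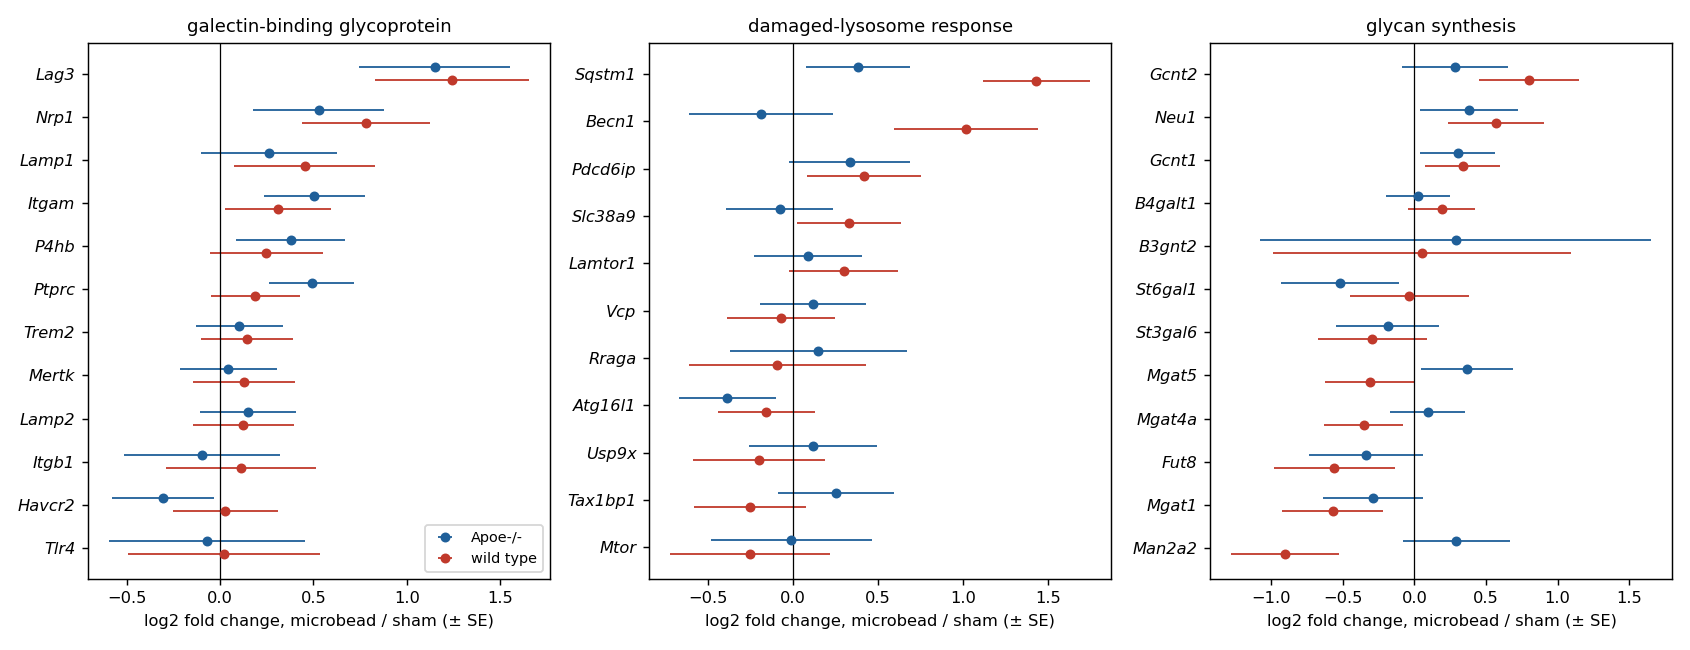
Log2 fold change of microbead over sham for the tested genes of 3 lists, in Apoe-/- (blue) and wild-type (red) retinas, with bars for 1 SE. Lag3 has the largest value of its list in both genotypes, at 1.15 and 1.24, and Sqstm1 lies at 0.38 in Apoe-/- and 1.43 in wild type.

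The genes whose pattern over the 15 libraries was most like that of a member were ranked by the root mean square difference of centred log2 CPM, among 2242 genes averaging at least 20 reads. All points share libraries and depth, and the ranking is a description. For Lgals3, whose own spread on this measure was 1.76, they were Lyz2 (0.87), Hcar2 (1.07), Spp1 (1.11), Pld3 (1.13) and H2-Eb1 (1.22), against a median of 1.78 over all candidates. Lyz2 encodes lysozyme, Hcar2 a receptor of hydroxybutyrate and niacin, Spp1 osteopontin, Pld3 a lysosomal nuclease and H2-Eb1 an MHC class II chain. Lyz2 averaged 446 ± 337 CPM in Apoe-/- microbead, 151 ± 36.2 in Apoe-/- sham, 1380 ± 826 in wild-type microbead and 210 ± 53.5 in wild-type sham libraries. Spp1 averaged 4.87 ± 6.47 CPM in Apoe-/- microbead, was at 0 in all Apoe-/- sham libraries, and averaged 153 ± 98.6 CPM in wild-type microbead and 5.65 ± 6.88 CPM in wild-type sham libraries.

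For Lgals3bp the nearest were H2-D1 (0.31), Ctsb (0.38) and H2-K1 (0.39), with an own spread of 0.91 and a median of 0.93. H2-D1 and H2-K1 encode MHC class I chains, and Ctsb the lysosomal protease cathepsin B. H2-D1 averaged 740 ± 316 CPM in Apoe-/- microbead, 393 ± 119 in Apoe-/- sham, 1205 ± 346 in wild-type microbead and 455 ± 104 in wild-type sham libraries. For Lgals9 they were Ergic3 (0.15), Pld4 (0.18) and Olfml3 (0.19), with an own spread of 0.37 and a median of 0.50. Pld4 encodes a lysosomal nuclease and Ergic3 a protein that cycles between the endoplasmic reticulum and the Golgi. Olfml3, one of the microglial markers used to check the sort, averaged 610 ± 123 CPM in Apoe-/- microbead, 537 ± 184 in Apoe-/- sham, 830 ± 286 in wild-type microbead and 686 ± 93.8 in wild-type sham libraries.

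Monocytes, border macrophages and neutrophils also make galectins, so their markers are given here. The summed CPM of 7 monocyte markers, of which 6 or 7 had reads in each group, was 10.9 to 35.2 in Apoe-/- microbead, 26.1 to 79.9 in Apoe-/- sham, 14.5 to 32.0 in wild-type microbead and 7.0 to 30.1 in wild-type sham libraries. Chil3 was at 0 in wild-type microbead, Plac8 in wild-type sham and Ly6c2 in Apoe-/- microbead libraries. For 7 border macrophage markers it was 43.7 to 101.5 CPM in Apoe-/- microbead, 28.5 to 86.1 in Apoe-/- sham, 31.9 to 69.0 in wild-type microbead and 28.0 to 63.8 in wild-type sham libraries, with Cbr2 at 0 in both sham groups. The 6 neutrophil markers summed to at most 1.6 CPM in Apoe-/- microbead, 4.8 in Apoe-/- sham and 1.0 in wild-type microbead libraries and to 0 in wild-type sham libraries, and Ly6g was at 0 in all groups but Apoe-/- sham. In wild-type microbead libraries these 3 sums lay within the range of the other groups, but single border macrophage markers moved apart. Of the 7, only Ms4a7 and Mrc1 passed the read filter. Ms4a7 had 12.4, 32.8, 17.5 and 10.9 CPM in Apoe-/- microbead libraries 1 to 4, against 19.0, 17.8, 15.7 and 18.3 CPM in Apoe-/- sham libraries. In wild type it had 24.6, 52.0 and 34.7 CPM in microbead libraries 1 to 3, against 15.2, 10.5, 1.20 and 15.1 CPM in sham libraries. Ms4a7 thus lay higher without overlap in wild type, as 1 of the 2 tested border macrophage markers (background 6.32%). Its log2 fold change, microbead over sham, was 0.01 (SE 0.55) in Apoe-/- and 1.89 (SE 0.50, edgeR adjusted p = 0.180) in wild type, neither called. Mrc1 was at 1.28 (SE 0.69) in Apoe-/- and -1.17 (SE 0.72) in wild type, neither called. Below the filter, Cd163 had 2 reads in wild-type microbead (at most 1.33 CPM) against 23 in wild-type sham libraries (at least 6.99 CPM), without overlap. Pf4 had 2 against 23 reads, with overlap. Lyve1 had 3 against 5, Clec10a 4 against 2 and Cbr2 3 against 0. Single border macrophage markers thus went in opposite directions. Markers of rods, the cells whose RNA often enters retinal sorts, varied widely between libraries of a group. Their 11 genes summed to 155.7 to 2445.5 CPM in Apoe-/- microbead, 139.2 to 1416.4 in Apoe-/- sham, 88.0 to 590.9 in wild-type microbead and 531.2 to 2398.0 in wild-type sham libraries, and these sums overlapped throughout. Microbead over sham, all 10 rod genes tested were positive in Apoe-/- (median 0.83) and all 10 negative in wild type (median -1.92), none called. In wild type 2 of the 10, Cngb1 and Rom1, had every microbead library below every sham library (background 4.22%). Markers of Müller glia and astrocytes, 5 in number, summed to 73.8 to 141.6 CPM in Apoe-/- microbead, 104.4 to 142.1 in Apoe-/- sham, 106.7 to 140.5 in wild-type microbead and 87.4 to 149.9 in wild-type sham libraries. Most of these reads were of Glul and Slc1a3, with 224 and 64 of 291 in wild-type microbead libraries. Rlbp1 was at 0 in wild-type microbead, Aqp4 in both wild-type groups and Gfap in Apoe-/- sham libraries. For 5 endothelial markers the sums were 24.6 to 37.3 CPM in Apoe-/- microbead, 15.7 to 75.5 in Apoe-/- sham, 8.0 to 27.5 in wild-type microbead and 25.8 to 36.6 in wild-type sham libraries. Pecam1 alone held 45 of 60, 34 of 52, 26 of 37 and 68 of 75 of these reads in the same order of groups. Cldn5 and Tek were at 0 in wild-type sham and Cdh5 in Apoe-/- microbead libraries. The part of rod RNA, of the share of predicted gene models, of endothelial RNA and of cells that express Ms4a7 in the differences of the members was not tested.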

How the data were processed

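Bulk RNA of sorted retinal microglia was measured in 15 libraries, prepared with SMART-Seq2 per the file headers. The authors deposited 1 table per library with estimated counts and TPM per transcript, and a table of gene TPM. Per the submitters' processing notes, these were made with Salmon 1.4.0, R 4.0.3 and DESeq2 1.30.1 on mm10. Library type, read filters and annotation release: not given in the sources used here.

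GENCODE M21 on mm10 gave a gene to 116023 of 116945 transcripts. Summed TPM matched the deposited gene TPM in 99.73% of values over 34317 genes (relative tolerance 0.001). Estimated counts were then added up by gene and rounded to whole numbers. Rows without a gene held 0.217 to 0.354% of reads and were left out. edgeR 4.0.16 in R 4.3.3 (quasi-likelihood test, TMM, filterByExpr) was fitted to all 15 libraries in 4 groups, with two-sided p-values adjusted by Benjamini-Hochberg over 6521 genes and a threshold of 0.05. Transcript shares used libraries with at least 10 reads of the gene. Promoter windows are RefSeq's.

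The 5 members and all lists were chosen with earlier results of these data known. Adjusted p-values printed for genes of the lists, cell type markers included, are therefore a description. Named from a list were genes called in any comparison and, for each comparison of microbead with sham, the 3 tested genes with the smallest p. The labels number retinas without saying whether each had its own mouse, so p-values measure only the spread between these libraries, part of it possibly technical. Libraries of a group all differed by more than sampling noise (chi-square per degree of freedom at least 2.21 over 21 pairs). Reads carry no molecular identifiers, so exact intervals and limits of 3 reads cover counting error only. Alternatives were other scalings, filters, DESeq2 1.42.0, limma 3.58.1 on log2(TPM + 1) and log2(TPM + 0.1), a replicate block and leaving out each library.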

Additional observations from a re-analysis of the deposited data

Results flagged for a closer look

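Lgals1 in wild-type sham retinas was marked because a single library stood apart from the rest: library 2 had 1.75 CPM (1.747 before rounding) and the other 3 had 0. That value is 1 read, below the 5.24 CPM that 3 reads give in that library. It was found among 15 groups of values of the members. The rule marks about 1 in 20 groups of continuous values by chance, but it always marks a group with 3 libraries at 0 and 1 above 0.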

How the results depend on the processing

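The count of genes called changed with the processing. For microbead over sham in wild type, 13 genes were called, against 43 with DESeq2, 124 with no filter on low counts, 5 with a stricter filter (10 reads or more in 7 or more libraries), 34 with limma on log2(TPM + 1) and 25 on that scale with no filter, and 0 to 29 when a library was left out. For microbead over sham in Apoe-/-, 0 were called, against 37 with no filter and 1 on log2(TPM + 1), with or without the filter. For the difference between the responses 0 were called, against 45 with no filter and 1 on log2(TPM + 1) with no filter. For Apoe-/- sham over wild-type sham 1 was called, against 41 with no filter, 2 on log2(TPM + 1), 2 on log2(TPM + 0.1) and 3 on log2(TPM + 1) with no filter. For Apoe-/- microbead over wild-type microbead 3 were called, against 23 with DESeq2, 73 with no filter, 1 with the stricter filter, 30 on log2(TPM + 1), 1 on log2(TPM + 0.1), 19 on log2(TPM + 1) with no filter and 1 to 7 when a library was left out. Filters change how many genes are tested, and the cause of the other shifts was not tested.

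Replicate numbers did not pair the libraries (correlations of deviations -0.161 to 0.223 over 14 pairs). With the number as a replicate block, 7 genes were called for microbead over sham in wild type and 1 for Apoe-/- microbead over wild-type microbead, where Lgals3 was at -3.37 and not called.

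Lgals3, microbead over sham in wild type, was positive in all 19 count alternatives (4.97 to 6.77) and called in 18, and the stricter filter left it out. It was not called without wild-type microbead library 2, nor on log2(TPM + 0.1). Apoe-/- microbead over wild-type microbead, it was negative in all 19 (-4.33 to -2.64) and called in 11, and DESeq2 gave no adjusted p. Without filter, the difference between its responses was called at -5.14, and Lgals3bp was called in wild type at 1.35. Lgals8, microbead over sham in wild type, was at 0.44 on log2(TPM + 1), where the median of all genes tested on TPM was 0.535, and at 0.56 on log2(TPM + 0.1). Alternatives were run for the genes named by the rule, each in the comparison it was named for, and of those Pdcd6ip and Gcnt1 changed sign. With a library left out Pdcd6ip in wild type ran from -0.064, without wild-type microbead library 2, to 0.677. Gcnt1 in Apoe-/- was at -0.027 on log2(TPM + 1), with or without the filter, and -0.062 on log2(TPM + 0.1). Differences in transcript share also turned when a library was left out, running in percentage points from -0.477 to 1.253 for Lgals9 and -0.585 to 4.283 for Lgals3bp in Apoe-/-, and from -0.794 to 0.372 for Lgals9 and -0.075 to 0.97 for Lgals3bp in wild type. Lgals1, with 45 reads in all, did not pass the read filter, and depth limits its values.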
